A study of Mus musculus with 8 samples.

Results

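The 5 mouse genes for peptidylarginine deiminases (Padi1, Padi2, Padi3, Padi4 and Padi6) were followed together with 3 genes for proteins of neutrophil extracellular trap (NET) release: the pore-forming gasdermin Gsdmd and the nuclear lamins Lmnb1 and Lmna. They were taken by symbol, as 8 of the 24421 genes in the count table, and 6 of them passed the filter, which asked for 1 count or more in 2 or more of the 8 libraries. Padi1 and Padi6 did not pass and were not tested. The cells were bone marrow neutrophils, isolated with magnetic beads from 8-week-old female C57BL/6 mice that were either wild type (WT) or Padi4-/- (Padi4 KO, a deletion of exon 1 by the study's methods). They were left without stimulus or given R848, an agonist of Toll-like receptor 7, at 1 µg/ml for 6 h. There were 4 groups with 2 libraries apiece. Separate mice are not stated in the labels, and the study's methods say only that samples were run in duplicate. The p-values thus measure only the spread between libraries, which may be technical. For the unstimulated cells the titles give 0 h and the treatment protocol 6 h, and if the titles hold, every R848 response also includes 6 h in culture.

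Peptidylarginine deiminases convert arginine residues of proteins to citrulline, in a reaction that needs calcium. PAD4, the product of Padi4, enters the nucleus and citrullinates histones, a step tied to chromatin decondensation and NET release in neutrophils. PAD2 is the broadly expressed member of the family, PAD1 and PAD3 are known from skin and hair follicle, and PAD6 from the oocyte. Gasdermin D forms membrane pores after cleavage by inflammatory caspases or neutrophil elastase. The lamins form the mesh under the nuclear envelope: mature neutrophils are known for little lamin A/C, the product of Lmna, and lamin B1 is cut or disassembled when the nucleus opens. None of these steps on proteins is measured by RNA counts.

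The Padi genes lie side by side within 225.2 kb of chromosome 4 (GRCm38, the build of mm10, GENCODE positions). Padi6 (140727355 to 140742643), Padi4 (140745865 to 140774236), Padi3 (140785365 to 140810648) and Padi1 (140812983 to 140845778) are on the minus strand, and Padi2 (140906344 to 140952586) is on the plus strand. Each has 16 exons, with the start codon in exon 1. The coding part of exon 1 is shown for the family because this exon is the one deleted in the Padi4 KO mice, and to set the family members side by side in sequence. The counts are per gene and do not place reads in this exon. The start codon is in capitals, the sequences are of GENCODE transcripts and run 5′ to 3′, and the Padi4 stretch is chr4:140774089-140774180 on the minus strand.
Padi4: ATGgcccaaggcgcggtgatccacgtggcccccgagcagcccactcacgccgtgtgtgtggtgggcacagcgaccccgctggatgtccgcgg
Padi1: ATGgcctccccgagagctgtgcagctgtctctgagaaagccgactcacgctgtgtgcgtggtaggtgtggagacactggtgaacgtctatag
Padi3: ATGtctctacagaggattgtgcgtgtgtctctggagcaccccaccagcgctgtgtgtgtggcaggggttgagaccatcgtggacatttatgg
Padi6: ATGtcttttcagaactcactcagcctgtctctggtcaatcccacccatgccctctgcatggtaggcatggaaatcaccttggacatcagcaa
Padi2: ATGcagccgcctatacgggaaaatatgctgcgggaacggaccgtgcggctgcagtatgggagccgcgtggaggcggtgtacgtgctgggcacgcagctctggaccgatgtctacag

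Over the whole coding sequence, Padi4 was identical to Padi3 at 66.1%, to Padi1 at 66.1%, to Padi2 at 63.6% and to Padi6 at 61.1% of aligned positions. The longest exact stretch that Padi4 shared was 33 bases with Padi2, 33 with Padi3 and 35 with Padi1, while Padi1 and Padi3 shared one of 63 bases. Padi1 and Padi2 each overlap an antisense gene, and both antisense genes had 0 counts in every library.

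The libraries held 562446 to 1177972 counts on genes, and 3 counts corresponded to 2.18 to 6.11 CPM (each count relative to the size of its library, corrected with TMM factors). The biological coefficient of variation was 4.68%. The summed level of 9 neutrophil markers was 119000 to 125000 CPM of all gene counts in unstimulated WT cells and 97900 to 99600 in unstimulated Padi4 KO cells. After R848 it was 101000 to 116000 in WT and 83000 to 84500 in Padi4 KO. Fewer cells of a type and less RNA per cell cannot be told apart in such bulk libraries. The summed level of 10 erythroid markers was 49.8 to 70.2 CPM in unstimulated WT and 601 to 639 in unstimulated Padi4 KO libraries, and 22.4 to 45.9 against 900 to 918 after R848. The 4 globin genes of that list (Hba-a1, Hba-a2, Hbb-bs and Hbb-bt) had 0 counts in all libraries. Scaling by library size alone, without TMM factors, moved the median of all genes by 0.287 (log2, Padi4 KO minus WT) without stimulus, by 0.214 after R848, and by -0.303 and -0.377 in the R848 responses of WT and Padi4 KO. It turned the genes passing in Padi4 KO against WT from 1170 higher and 1763 lower to 1901 and 561 without stimulus, and from 1159 and 957 to 1870 and 417 with R848.

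Padi4 was the family member with nearly all Padi counts in WT neutrophils, and its counts were low but not absent in Padi4 KO. It had 590 and 527 counts (912 and 910 CPM) in the WT libraries without stimulus, and 40 and 54 (45.2 and 39.2 CPM) in the Padi4 KO libraries. With R848 the WT libraries had 166 and 234 counts (338 and 414 CPM) and the Padi4 KO libraries 34 and 21 (30.2 and 19.3 CPM). All 4 Padi4 KO libraries lay below all 4 WT libraries, at 4.96% and 4.3% of the WT mean without stimulus and at 8.03% and 5.13% with R848. The log2 difference was -4.45 (SE 0.13) without stimulus and -3.92 (SE 0.17) with R848, with adjusted p of 1.21e-253 and 6.8e-114 (edgeR quasi-likelihood test, Benjamini-Hochberg over 12254 genes). The table holds one count per gene, so it does not show which of the 16 exons gave the remaining reads.

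Padi4 fell with R848 in WT. The log2 change was -1.27 (SE 0.10, adjusted p = 2.84e-34) in WT and -0.74 (SE 0.24, adjusted p = 0.00917) in Padi4 KO, which is less than the 2-fold asked of R848 responses. Both lay near that limit: without WT R848 replicate 1 the WT response was -0.999 and lost its call, and the Padi4 KO response passed 2-fold with library size alone (-1.12) and without Padi4 KO R848 replicate 1 (-1.25). The difference between these responses was 0.53 (95% interval -0.00336 to 1.06, adjusted p = 0.379) and did not pass the threshold.

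**Figure D1:**
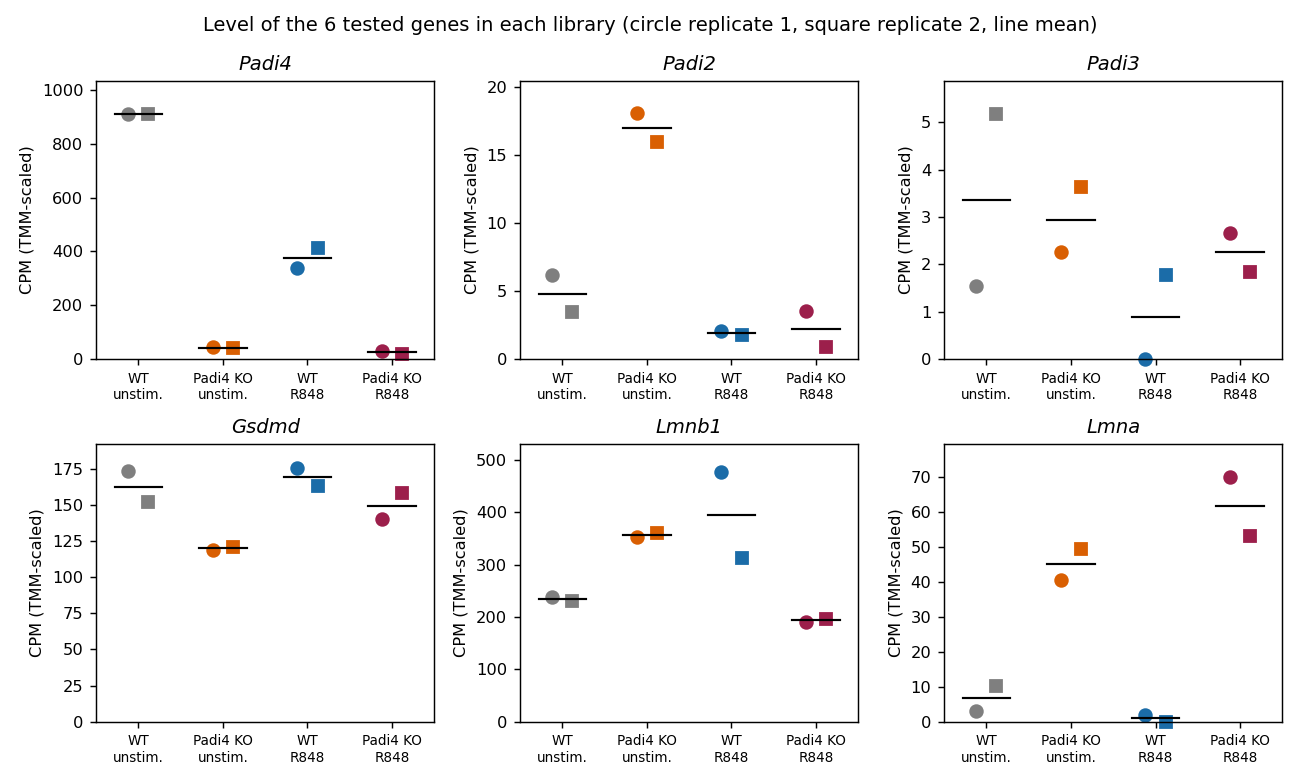
Levels of the 6 tested genes in CPM (y axis, from 0) in each of the 8 libraries, by group on the x axis, with circles for replicate 1, squares for replicate 2 and lines for the mean of 2. Padi4 is at 910 and 912 CPM in unstimulated WT and at 19.3 to 45.2 CPM in the 4 Padi4 KO libraries, Padi2 is highest in unstimulated Padi4 KO, and Lmna is at 40.7 to 70.2 CPM in Padi4 KO and at 10.4 CPM or less in WT.

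Whether another Padi gene was higher where Padi4 was deleted was asked for each in turn. Padi2 rose in unstimulated Padi4 KO neutrophils, from a low level. It had 4 and 2 counts in unstimulated WT and 16 and 22 in unstimulated Padi4 KO, which are 6.18 and 3.45 against 18.1 and 15.96 CPM. The groups did not overlap, at a mean of 4.82 ± 1.93 CPM (SD, n = 2) in WT and 17.0 ± 1.503 CPM (SD, n = 2) in Padi4 KO. The log2 difference was 1.75 (95% interval 0.61 to 2.89, adjusted p = 0.0182, edgeR), or 3.36-fold. From the summed counts, 38 against 6, the ratio was 3.43 with a 95% counting interval of 1.44 to 9.93. DESeq2 gave 1.86 with an adjusted p of 0.28, and without WT unstimulated replicate 2 the adjusted p was 0.193. The WT side of this comparison holds 6 counts in all.

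Padi2 was near the floor once R848 was given. WT gave 1 and 1 counts and Padi4 KO 4 and 1, and the groups overlapped at 2.04, 1.77, 3.55 and 0.92 CPM. The log2 difference was 0.24 (95% interval -2.08 to 2.56, adjusted p = 0.957), and the ratio of the summed counts, 5 against 2, was 1.19 (95% counting interval 0.195 to 12.5). Within Padi4 KO, Padi2 fell by 2.82 on the log2 scale with R848 (95% interval -3.94 to -1.69, adjusted p = 7.81e-06). In WT it went from 6 summed counts to 2, with a log2 change of -1.30 (95% interval -3.49 to 0.89, adjusted p = 0.461). The responses were not shown to differ, at -1.51 (95% interval -4.48 to 1.46, adjusted p = 0.761), and over both treatments Padi2 did not pass either, at 0.99 (95% interval -0.33 to 2.31, adjusted p = 0.316).

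The summed level of 10 stromal and endothelial markers followed the same order of groups at its top: 247 to 310 CPM in unstimulated WT, 610 to 771 in unstimulated Padi4 KO, 136 to 139 in R848-treated WT and 93.5 to 98.5 in R848-treated Padi4 KO. Of the 7 markers tested, 3 were higher and 1 lower in unstimulated Padi4 KO, where 23.9% of all genes passed. The part of these cells and of erythroid cells in the Padi2 difference was not tested.

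Padi3 had between 0 and 5 counts in a library. It had 1 and 3 counts in unstimulated WT, 2 and 5 in unstimulated Padi4 KO, 0 and 1 in WT with R848, and 3 and 2 in Padi4 KO with R848. The WT and Padi4 KO ranges overlapped without stimulus, and no comparison passed the test. The log2 difference was -0.07 (95% interval -2.03 to 1.88) without stimulus and 1.14 (95% interval -1.81 to 4.08) with R848, and a change of several fold in either direction could not be seen at this depth. Summed over treatments, 12 counts against 5 gave a ratio of 1.22 (95% counting interval 0.401 to 4.43).

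Padi1 had 1 count, in WT with R848 (replicate 1), and Padi6 had 0 counts in all libraries. The limit that a count of 0 allows, 3 counts, is between 2.18 CPM in the library with the largest scaled size and 6.11 CPM in the one with the smallest, for counting error only. A level of these genes below that was not detectable.

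Counted together, Padi1, Padi2, Padi3 and Padi6 made up 0.84% and 0.94% of all Padi counts in unstimulated WT and 31.0% and 33.3% in unstimulated Padi4 KO. With R848 the shares were 1.19% and 0.847% in WT and 17.1% and 12.5% in Padi4 KO (exact binomial 95% intervals 7.15% to 32.1% and 2.66% to 32.4% for the latter pair). The Padi4 count in the denominator was itself lower in Padi4 KO, so the share alone does not show a rise. The summed level of the other Padi genes was 7.73 and 8.63 CPM in unstimulated WT against 20.4 and 19.6 CPM in unstimulated Padi4 KO. With R848 it was 4.08 and 3.54 CPM in WT, between the 6.22 and 2.76 CPM of the Padi4 KO libraries.

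**Figure D2:**
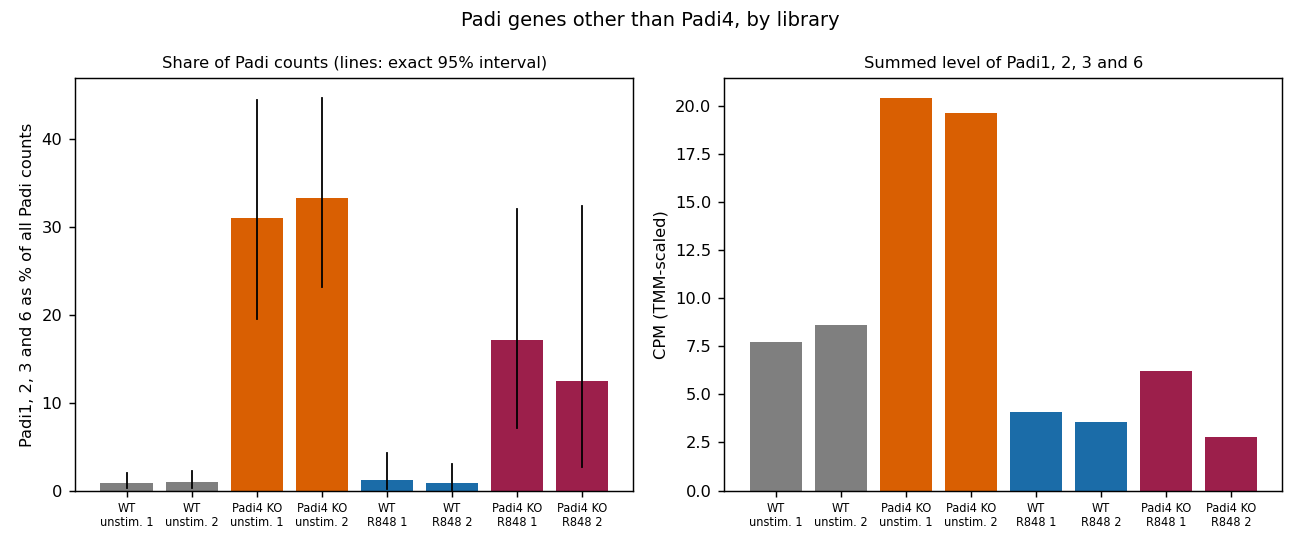
Padi1, Padi2, Padi3 and Padi6 together in each library: left, their percent of all Padi counts with exact binomial 95% intervals, and right, their summed CPM. The share is 31.0% and 33.3% in unstimulated Padi4 KO, but the summed level there, 20.4 and 19.6 CPM, is small beside the 912 and 910 CPM of Padi4 in unstimulated WT.

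Set per length, as RPKM (the CPM divided by the exon length in kilobases, computed here), Padi4 was the highest of the 8 genes in unstimulated WT, at 393 ± 0.69 (SD, n = 2). Gsdmd at 86.1 ± 7.95 and Lmnb1 at 82.3 ± 2.10 followed and overlapped each other. Lmna (0.87 to 2.92), Padi2 (0.72 to 1.29) and Padi3 (0.45 to 1.503) were far below and overlapped among themselves. In unstimulated Padi4 KO the order was Lmnb1 at 125 ± 1.88, Gsdmd at 63.5 ± 0.92, Padi4 at 18.2 ± 1.84, Lmna at 12.7 ± 1.72, Padi2 at 3.57 ± 0.31 and Padi3 at 0.85 ± 0.28, with no overlap between neighbours. The level per length that Padi2 reached there was thus below that of the remaining Padi4 reads in the same libraries. In WT with R848, Padi4 (146 to 179) and Lmnb1 (110 to 168) overlapped at the top, above Gsdmd (86.3 to 92.8). In Padi4 KO with R848, Gsdmd (74.4 to 83.7) was above Lmnb1 (67.2 to 69.2), Lmna (15.0 to 19.8) and Padi4 (8.33 to 13.0).

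Of the 6 tested genes, 5 passed the test in unstimulated Padi4 KO against WT, where 23.9% of all genes tested did and 9.55% were higher. Padi2, Lmnb1 and Lmna were higher, and Padi4 and Gsdmd lower. With R848, 3 passed (Lmna higher, Padi4 and Lmnb1 lower), against 17.3% of all genes, 9.46% higher. Over both treatments 4 passed (Lmna higher, and Padi4, Gsdmd and Lmnb1 lower), against 29.7% of all genes, 14.7% higher. In the R848 response of WT, 2 passed with the 2-fold rule (Padi4 and Lmna, both lower), against 18% of all genes, and 3 without it, against 29.5%. In the R848 response of Padi4 KO, 1 passed with the 2-fold rule (Padi2, lower), against 16.9%, and 5 without it, against 35.1%. In the difference of the responses 1 passed (Lmnb1), against 4.71%.

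**Figure D3:**
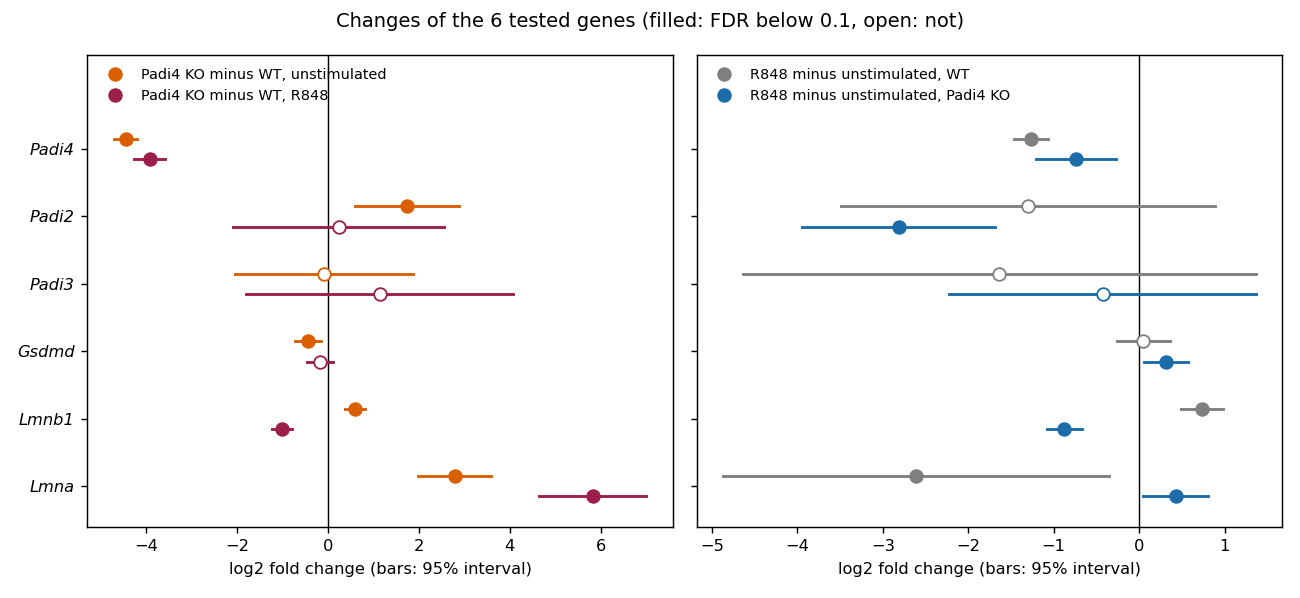
Log2 fold changes (x axis) of the 6 tested genes with 95% intervals, left for Padi4 KO minus WT in each treatment and right for R848 minus unstimulated in each genotype, with filled points where the adjusted p is below 0.1. Lmnb1 lies at 0.60 without stimulus and at -1.01 with R848 in Padi4 KO minus WT, and Lmna is higher in Padi4 KO in both treatments.

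Gsdmd (chromosome 15, 75862327 to 75867408, plus strand) differed little between the groups. It had 112 and 88 counts in unstimulated WT, 105 and 167 in unstimulated Padi4 KO, 86 and 92 in WT with R848, and 158 and 172 in Padi4 KO with R848. In CPM these were 173 and 152, 119 and 121, 175 and 163, and 140 and 158. Without stimulus both Padi4 KO libraries were below both WT libraries, and Gsdmd was lower by -0.44 (log2, SE 0.15, adjusted p = 0.0187). That call was lost in 9 of 16 alternatives, among them DESeq2 (adjusted p = 0.313) and library size alone (-0.15, adjusted p = 0.561). With R848 the difference was -0.18 (95% interval -0.47 to 0.11, adjusted p = 0.519). Gsdmd did not pass in the WT response, at 0.05 (95% interval -0.26 to 0.36, adjusted p = 0.899), and in Padi4 KO it was at 0.31 (SE 0.13, adjusted p = 0.059), less than 2-fold. With library size alone that response was -0.07 (adjusted p = 0.739). The neutrophil marker list was also lower in unstimulated Padi4 KO, with 8 of 9 genes passing against 23.9% of all genes, and its part in the Gsdmd difference was not tested.

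Among the 9 other gasdermin-family genes in the table, Dfna5, which encodes gasdermin E, was the one with substantial counts: 106 and 86 in unstimulated WT, 92 and 139 in unstimulated Padi4 KO, 80 and 83 in WT with R848, and 201 and 175 in Padi4 KO with R848. It was lower in unstimulated Padi4 KO by -0.61 (SE 0.15, adjusted p = 0.000727) and its R848 response in Padi4 KO was 0.73 (adjusted p = 3.69e-07), less than the 2-fold asked, while in WT the change was -0.02 (adjusted p = 0.999). The responses differed by 0.75 (SE 0.21, adjusted p = 0.0184). The unstimulated call was lost with library size alone (-0.328, adjusted p = 0.142), and the difference of responses with relative log expression factors (adjusted p = 0.126), after thinning (0.333), with DESeq2 (0.435), and without WT unstimulated replicate 1, Padi4 KO unstimulated replicate 2 or any one R848 library (0.107 to 0.535). Gsdmc4 was the other tested gene of the family, with 0 to 2 counts in a library, and it was named after its values were seen. The remaining 7 had at most 1 count in all.

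Lmna (chromosome 3, 88480147 to 88509956, minus strand), for lamin A/C, was higher in Padi4 KO in both treatments. It had 2 and 6 counts in unstimulated WT against 36 and 68 in unstimulated Padi4 KO, which are 3.09 and 10.4 against 40.7 and 49.3 CPM. With R848 the WT libraries held 1 and 0 Lmna counts against 79 and 58 in the Padi4 KO ones, the latter at 70.2 and 53.3 CPM. No WT library reached any Padi4 KO library. The log2 difference without stimulus was 2.79 (SE 0.41, adjusted p = 3.92e-10), or 6.9-fold, and the ratio of the summed counts, 104 against 8, was 7.04 (95% counting interval 3.45 to 16.7). With R848, 137 against 1 summed counts gave a ratio of 65.3 with a wide counting interval of 11.5 to 2600 (adjusted p = 6.82e-20). The call held in all 16 alternatives in each treatment.

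The R848 responses of Lmna rested on few WT counts. In WT it fell by 2.61 on the log2 scale (95% interval -4.87 to -0.35, adjusted p = 0.0839), from 8 summed counts to 1, and 7 of 17 alternatives lost that call, DESeq2 among them (adjusted p = 0.241). Without WT unstimulated replicate 2 the change was -1.57 (adjusted p = 0.563) and without WT R848 replicate 2 it was -1.51 (adjusted p = 0.484). In Padi4 KO it was at 0.43 (SE 0.19, adjusted p = 0.082), less than 2-fold, and DESeq2 gave 0.37 with an adjusted p of 0.678. The difference of the responses, 3.04 (95% interval 0.77 to 5.30, adjusted p = 0.148), did not pass.

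The erythroid markers moved with Lmna. Of the 6 markers tested, 5 were higher in unstimulated Padi4 KO and 6 with R848, with median log2 differences of 2.98 and 5.13. Over all genes 9.55% and 9.46% were higher. The 10 monocyte and macrophage markers summed to 243 to 308 CPM in unstimulated WT, 514 to 550 in unstimulated Padi4 KO, 2800 to 2890 in WT with R848 and 2830 to 2910 in Padi4 KO with R848. Of these 10 markers, 3 were higher in unstimulated Padi4 KO, and with R848 2 were higher and 1 lower, against 23.9% and 17.3% of all genes passing in either direction. Their median log2 difference was 0.21 without stimulus and 0.355 with R848. The rise of their sum with R848 was not shared across the list: the median log2 response was -1.64 in WT and -1.68 in Padi4 KO. By adjusted p alone, 3 rose and 1 fell in WT and 3 rose and 3 fell in Padi4 KO, beside 29.5% and 35.1% of all genes. With R848 the stromal and endothelial sum was lower in the Padi4 KO libraries. Of its 7 tested markers, however, 1 passed as lower and 0 as higher, beside 17.3% of all genes, and the median log2 difference was 0. By the study's methods the cells were isolated as neutrophils with a magnetic kit. The part of erythroid and other cells in the Lmna difference was not tested.

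Lmnb1 (56707813 to 56753424 of chromosome 18, plus strand), for lamin B1, was higher in Padi4 KO without stimulus and lower with R848. Its counts were 154 and 133 in unstimulated WT and 311 and 495 in unstimulated Padi4 KO, or 238 and 230 against 352 and 359 CPM. With R848 they were 234 and 176 in WT and 215 and 214 in Padi4 KO, or 477 and 312 against 191 and 197 CPM. In each treatment the genotypes did not overlap, and the R848-treated WT libraries were the pair with the widest spread. The log2 difference of Padi4 KO from WT was 0.60 (SE 0.11, adjusted p = 2.58e-06) without stimulus and -1.01 (SE 0.12, adjusted p = 4.64e-16) with R848. The R848 response of Lmnb1 was 0.74 (SE 0.12, adjusted p = 4.04e-08), or 1.67-fold, in WT and -0.88 (SE 0.10, adjusted p = 8.34e-16) in Padi4 KO, neither past 2-fold. The WT response was 1.13 without WT R848 replicate 2, past 2-fold, and 0.43 with library size alone. The Padi4 KO response passed 2-fold at -1.25 with library size alone and at -1.01 to -1.02 without WT R848 replicate 1, WT R848 replicate 2 or Padi4 KO R848 replicate 2.

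The responses of Lmnb1 differed by -1.61 (SE 0.16, adjusted p = 4.54e-20, edgeR interaction contrast), and over 16 alternatives the value stayed between -2.13 and -1.56 with adjusted p of at most 1.14e-09. Over both treatments the opposite differences left -0.20 (SE 0.08, adjusted p = 0.0541), which lost its call in 9 of 16 alternatives and turned to 0.05 (adjusted p = 0.753) with library size alone. Lmnb2, for lamin B2, was named after its values were seen and had no such difference that passed. Its counts were 29 and 27 in unstimulated WT, 39 and 52 in unstimulated Padi4 KO, 10 and 10 in WT with R848, and 23 and 15 in Padi4 KO with R848. It fell with R848 by 1.26 (adjusted p = 0.00296) in WT and by 1.22 (adjusted p = 5.56e-05) in Padi4 KO, and its responses differed by 0.04 (SE 0.48, adjusted p = 1).

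Within a library, the share of Lmna in the summed Lmna and Lmnb1 counts does not depend on scaling. It was 1.28% and 4.32% in unstimulated WT, 10.4% and 12.1% in unstimulated Padi4 KO, 0.426% and 0% in WT with R848, and 26.9% and 21.3% in Padi4 KO with R848. The exact binomial 95% interval reached 9.16% at most in WT and began at 7.37% at the lowest in Padi4 KO. The Lmnb1 count in the denominator also moved. From unstimulated to R848-treated Padi4 KO the ratio of summed counts was 0.544 for Lmnb1 and 1.35 for Lmna, scaled for library size. The share alone thus does not show a rise of Lmna with R848.

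**Figure D4:**
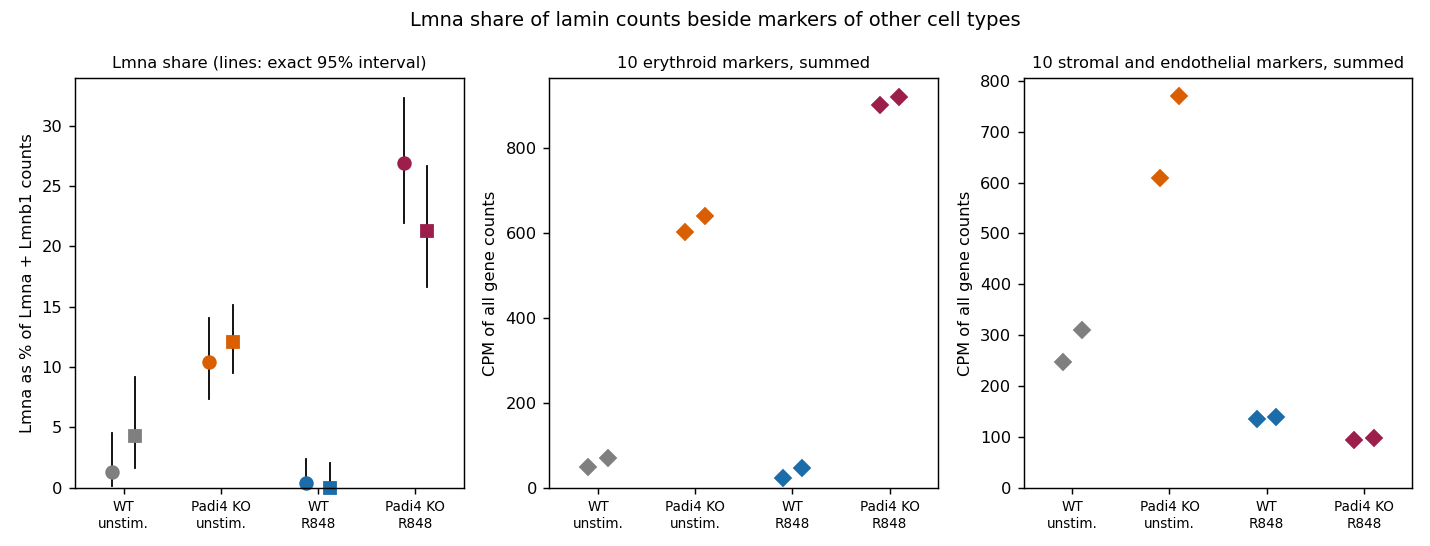
Left, Lmna as percent of Lmna and Lmnb1 counts in each library (circle replicate 1, square replicate 2, lines exact binomial 95% intervals), and middle and right, the summed CPM of 10 erythroid and of 10 stromal and endothelial markers (diamonds, the lower and the higher library of each group). The Lmna share and the erythroid sum are both highest in Padi4 KO with R848, at 21.3% and 26.9% and at 900 to 918 CPM, where the stromal sum is lowest at 93.5 to 98.5 CPM. Lmnb1, part of the denominator of the share, is lower in Padi4 KO with R848 than in unstimulated Padi4 KO.

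Outside the 8 genes, 66 genes of NET release and of the nuclear envelope were in the table, in a list written for the roles around them, and 58 were tested. In Padi4 KO against WT, 5 were higher and 22 lower without stimulus, and 6 were higher and 21 lower with R848. Over all genes 23.9% and 17.3% passed, 9.55% and 9.46% as higher. The median log2 difference was -0.17 and -0.11, against -0.03 and 0.08 over all genes. The split depended on the scaling: with library size alone it was 13 higher and 9 lower without stimulus and 15 higher and 10 lower with R848. In the R848 responses 16 of the 58 passed in WT (6 higher, 10 lower) and 18 in Padi4 KO (9 and 9), or 27.6% and 31%, against 18% and 16.9% of all genes. Here and elsewhere, the shares of all genes include genes with few counts, which pass less often. Of the 12254 genes, 6912 had a mean of at least 10 counts. With edgeR's filterByExpr filter, which left 7376 genes, 1117 were higher and 1808 lower without stimulus, and 1112 and 1011 with R848. The R848 responses then had 744 higher and 1256 lower in WT, and 741 and 780 in Padi4 KO.

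The 10 oxidase and granule genes, which supply the superoxide and the proteases of NETs, were mostly lower in Padi4 KO, and none passed as higher. All 10 passed as lower without stimulus and 9 with R848 (23.9% and 17.3% of all genes passed in either direction), and with library size alone 4 and 5 still did, with none higher. Mpo, the granule peroxidase, had 387 and 316 counts in unstimulated WT and 278 and 442 in the deeper Padi4 KO libraries, a log2 difference of -0.85 (SE 0.10, adjusted p = 8.44e-16). Elane, neutrophil elastase, was at -0.84 (adjusted p = 7.85e-10), Prtn3, proteinase 3, at -0.50 (adjusted p = 0.000638), and Ncf1, the oxidase subunit p47phox, at -0.80 (adjusted p = 4.42e-29). The Prtn3 call was lost with DESeq2 (adjusted p = 0.178) and library size alone (0.269). With R848, Mpo fell by 2.11 in WT and by 2.71 in Padi4 KO, and Elane by 1.42 and 1.76, whereas Ncf1 rose by 1.28 in Padi4 KO and was at 0.77 (adjusted p = 1.21e-28), less than 2-fold, in WT. The neutrophil marker sum was lower in Padi4 KO in both treatments, as given above, and its part here was not tested.

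Of the 9 genes for gasdermin cleavage and membrane rupture, 5 were lower and none higher in unstimulated Padi4 KO, and 4 lower and none higher with R848, beside 23.9% and 17.3% of all genes. With library size alone 1 of each direction passed without stimulus and 2 of each with R848. With R848, 3 of the 9 rose and 2 fell past 2-fold in each genotype (18% and 16.9% of all genes passed that rule). Ninj1, whose product ruptures the plasma membrane in lytic death, rose by 2.87 in WT (38 and 46 to 235 and 295 counts) and by 3.64 in Padi4 KO (43 and 50 to 602 and 539 counts). Nlrp3, the inflammasome sensor, rose by 2.21 and 1.84, and Casp4, the caspase-11 gene that cleaves gasdermin D, by 2.52 and 1.66. The genes that fell were Elane, which is also in the granule list, and Pycard, the inflammasome adaptor ASC, by 1.74 and 1.33, named after its values were seen.

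Of the 15 other genes of the lamina and nuclear envelope, 2 were higher and 3 lower in unstimulated Padi4 KO, and 3 higher and 6 lower with R848. Over all genes 23.9% and 17.3% passed, so 5 of 15 without stimulus is not far from that share. With library size alone the counts were 5 and 2, and 5 and 4. Banf1, for the DNA-bridging barrier-to-autointegration factor, was among the higher ones, with 14 and 15 counts in unstimulated WT against 56 and 67 in unstimulated Padi4 KO (log2 1.198, adjusted p = 0.00028) and 8 and 9 against 50 and 46 with R848 (1.42, adjusted p = 0.000693, but 0.205 after thinning). Sun1, which links the lamina to the cytoskeleton, was higher with R848 (1.34, adjusted p = 0.000538) and at 0.30 (adjusted p = 0.399) without. Syne2, its partner nesprin-2, was lower in both treatments, at -0.51 and -1.09, and the unstimulated call was lost with DESeq2 (adjusted p = 0.413), library size alone (0.421), thinning (0.262) and without WT unstimulated replicate 2, Padi4 KO unstimulated replicate 2 or either Padi4 KO R848 library (0.109 to 0.307). Emd, for emerin, rose with R848 by 1.36 in WT. In Padi4 KO it was at 0.55 (adjusted p = 0.0156), less than 2-fold.

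Of the lamin processing genes 1 of 5 passed in each treatment, and of the lamin kinases 3 of 7 without stimulus and 1 of 7 with R848, beside 23.9% and 17.3% of all genes. The kinase count with R848 depended on the scaling. It was 1 higher and 2 lower with relative log expression factors, 1 and 3 after thinning, and 2 and 0 with library size alone. Zmpste24, the protease that matures prelamin A, was the processing gene that passed, lower by -0.59 (adjusted p = 4.59e-06) without stimulus and by -0.60 (adjusted p = 0.0127) with R848, and it fell with R848 by 1.64 in WT and 1.65 in Padi4 KO. With library size alone its R848 call was lost (-0.386, adjusted p = 0.167), and another processing gene passed as higher. Among 7 kinases, Cdk4 was higher in Padi4 KO, with 20 and 18 against 79 and 114 counts without stimulus (1.46, adjusted p = 2.99e-08) and 3 and 7 against 60 and 42 with R848 (2.26, adjusted p = 2.4e-07). Prkcb and Prkcd, protein kinase C genes, were lower without stimulus (-0.76 and -0.60) and did not pass with R848 (-0.12 and -0.09), and their R848 responses differed by 0.64 and 0.52. The latter calls were lost after thinning (0.311 and 0.102, adjusted p = 0.407 and 0.872) and with DESeq2 (0.205 and 0.261).

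Among 7 chromatin protein genes, 1 was higher and 2 lower in unstimulated Padi4 KO, and 1 higher and 3 lower with R848 (23.9% and 17.3% of all genes passed). With library size alone 3 were higher and none lower in each treatment. Hmgb1, an alarmin carried on NETs, was higher by 0.56 (adjusted p = 0.000365, but 0.132 without WT unstimulated replicate 1) without stimulus and at 0.27 (adjusted p = 0.268) with R848. H3f3a, a histone H3.3 gene with near-identical copies in the genome, rose with R848 by 1.02 in WT and was at 0.96 (adjusted p = 2.05e-39) in Padi4 KO, just short of 2-fold. H2afz, for the histone variant H2A.Z, had R848 responses of 0.66 (adjusted p = 1.08e-07) in WT and 0.18 (adjusted p = 0.156) in Padi4 KO, neither past 2-fold. H1f0, a linker histone, was higher in Padi4 KO with R848 (1.05, adjusted p = 0.0419), with 7 and 9 counts in WT against 45 and 25. That call was lost with DESeq2 (adjusted p = 0.383), after thinning (0.173) and without either WT R848 library or Padi4 KO R848 replicate 1 (0.207 to 0.651).

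Of 5 tested nuclease genes, 1 passed in each treatment, beside 23.9% and 17.3% of all genes. Dnase2a, the lysosomal DNase II, was higher in Padi4 KO, with 4 and 1 against 9 and 23 counts without stimulus (1.75, adjusted p = 0.0241) and 4 and 8 against 41 and 27 with R848 (1.42, adjusted p = 0.00762). With DESeq2 the adjusted p were 0.216 and 0.278. The unstimulated call was also lost without replicate 2 of WT (0.315) or of Padi4 KO (0.314), and the R848 call without replicate 1 of WT (0.24) or of Padi4 KO (0.224). Trex1, a cytosolic exonuclease, rose with R848 by 1.496 in WT and was at 0.98 (adjusted p = 0.000481) in Padi4 KO, just short of 2-fold. Dnase1l3 and Dnase1, the secreted nucleases that degrade NETs, had at most 1 and 2 counts in a library, and they were named after their values were seen.

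Genes around the deleted gene were read for the same libraries. Within 500 kb of Padi4, 29 genes other than Padi genes are annotated, 16 are in the table and 9 were tested. Over both treatments 4 were higher and 1 lower in Padi4 KO, 5 of 9 against 29.7% of all genes. Among the 7376 genes left by the filterByExpr filter, 1473 were higher and 1874 lower. Rcc2, a chromosome condensation regulator 22645 bp from Padi4, had 40 and 41 counts in unstimulated WT against 137 and 226 in unstimulated Padi4 KO, and 19 and 24 against 116 and 127 with R848. No WT library reached a Padi4 KO library, and the log2 difference was 1.35 (SE 0.14, adjusted p = 8.76e-20). Arhgef10l (1.02, adjusted p = 0.0219), Atp13a2 (0.77, adjusted p = 0.00661) and Necap2 (0.42, adjusted p = 0.00962) were higher, and Szrd1 lower (-0.32, adjusted p = 0.0326). With DESeq2 only 1 of the 9 passed. Over all 12254 genes DESeq2 passed 840 as higher and 1088 as lower, against 1801 and 1839 in edgeR. Rcc2 passed in all of the alternatives, while the Szrd1 call was also lost with library size alone (-0.0667, adjusted p = 0.769) and the Atp13a2 call without WT R848 replicate 1 (0.371, adjusted p = 0.315). Without stimulus 1 was higher and 1 lower, and with R848 2 were higher, shares close to the 23.9% and 17.3% of all genes. The 6 erythroid markers tested were also higher over both treatments, with a median log2 difference of 4.06, where 14.7% of all genes were higher. The part of erythroid cells in the neighbour differences was not tested.

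**Figure D5:**
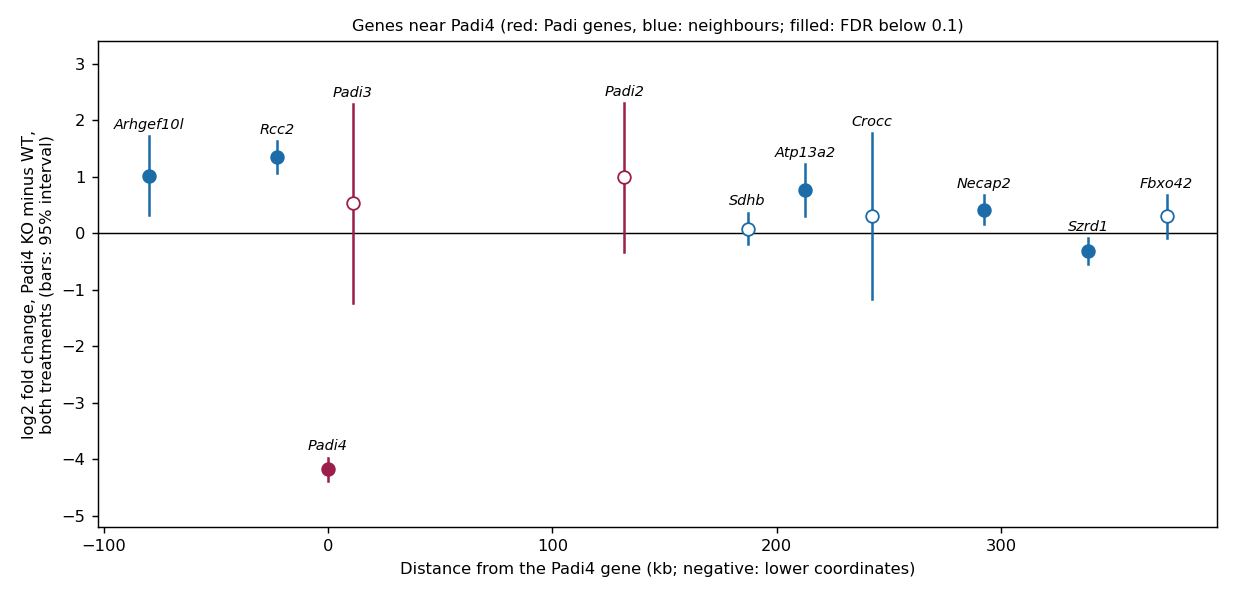
Log2 fold change of Padi4 KO minus WT over both treatments (y axis, bars 95% intervals) for the tested genes within 500 kb of Padi4 by distance in kb, Padi genes in red, others in blue, filled where the adjusted p is below 0.1. Padi4 is at -4.18 and Rcc2 beside it at 1.35, while the intervals of Padi3 and Padi2 cross 0. A gene whose interval could not be estimated (Rsg1) is left out.

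The genes most like Padi4, Gsdmd and Lmnb1, the members with a mean of at least 50 counts, were sought across the 8 libraries. Each was compared with 2918 other genes of such a mean, by Pearson correlation of log2 CPM. The libraries share their groups, so these values are descriptions. Padi4 was most like Itm2b (r = 0.988), Rab27a (0.982) and Atg7 (0.98), but their levels differed far less between genotypes: Rab27a was at 326 CPM in unstimulated WT and 232 in unstimulated Padi4 KO. Gsdmd was most like Golga2 (0.973), Wnk1 (0.965) and Larp4b (0.963). Lmnb1 was most like Eif3a (0.942), which was at 77.5 CPM in unstimulated WT, 114 in unstimulated Padi4 KO, 118 in WT with R848 and 75.5 in Padi4 KO with R848, the same order of treatments within each genotype. Ube2h (0.821) and Clint1 (0.764) followed at a distance.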

How the data were processed

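RNA from bone marrow neutrophils was sequenced on a MiSeq as paired ends after a TruSeq v2 preparation, which does not mark strand. Per the submitters' processing notes, the tools were FastQC 0.11.7, cutadapt 1.16, STAR 2.5.3a and HTSeq 0.6.1p1 with the build mm10. The annotation and strand setting are not given in the sources used here, so overlapping genes cannot be told apart. The authors deposited raw counts per gene symbol, without normalization, for 8 libraries. HTSeq's summary lines, which name no gene, were left out, and 87.0% to 89.5% of each library lay on genes.

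The groups and replicate numbers came from the labels. In R 4.3.3, edgeR 4.0.16 (limma 3.58.1) fitted 1 mean per group to all 8 libraries, with TMM factors and the robust quasi-likelihood test, over the 12254 genes with at least 1 count in at least 2 libraries. Adjusted p is Benjamini-Hochberg's over all of them. A response passed at an adjusted p below 0.1 and over 2-fold, other contrasts at 0.1 alone. With 2 libraries per group, no exact test of a single gene could reach these thresholds. Ratios of summed counts and shares carry exact binomial 95% intervals, and these and the floor of 3 counts cover counting error only. CPM and RPKM were computed from the counts, RPKM with GENCODE exon lengths, and sums over marker lists use library totals without TMM factors.

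The 8 genes, the lists around them and the markers were chosen with earlier results of these data known. The text names all 8, up to 4 genes of each role list with the largest change among those past the threshold (mean count of at least 10), the neighbours of Padi4 that passed over both treatments, and the 3 genes most like each member with a mean of at least 50 counts. Genes outside this rule are marked as named after their values were seen. The alternatives were DESeq2 1.42.0, edgeR's filterByExpr filter, no filter, relative log expression factors, library size alone, a replicate block, thinning to 562446 counts, a threshold of 0.05, no 2-fold rule, and leaving out each library.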

Additional observations from a re-analysis of the deposited data

Results flagged for a closer look

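The R848 response differed between the genotypes for 9 of the genes named here, by the test of the difference itself (edgeR interaction contrast, Padi4 KO response minus WT response, log2). For Lmnb1 it was -1.61 (adjusted p = 4.54e-20), from 0.74 in WT and -0.88 in Padi4 KO, neither past 2-fold, and the difference was called in all 16 alternatives. The responses themselves crossed 2-fold in some alternatives, up to 1.13 in WT (without WT R848 replicate 2) and down to -1.25 in Padi4 KO (library size alone). The others were smaller: Dfna5 at 0.75, Ninj1 at 0.77, Ncf1 at 0.51, Prkcb at 0.64 and Prkcd at 0.52 had a higher response in Padi4 KO, and Mpo at -0.60, Prtn3 at -0.68 and H2afz at -0.48 a lower one. Among the 58 NET genes tested, 7 had a higher and 3 a lower response in Padi4 KO, and this split was 6 and 3 with library size alone, 4 and 4 with relative log expression factors, 0 and 5 after thinning and 1 and 1 with DESeq2. Over all genes 4.71% passed, 423 higher and 154 lower, and that split moved the same way, to 160 and 233, 68 and 276, and 35 and 90 with the last 3 of these settings and to 255 and 170 with library size alone. Thinning lost the calls of Dfna5, Ninj1, Ncf1, Prkcb and Prkcd and left those of Mpo, Prtn3 and H2afz. DESeq2 left Ncf1 and H2afz. Each of the 8 lost its call without at least 1 single library, H2afz without WT unstimulated replicate 2 (adjusted p = 0.21) or Padi4 KO unstimulated replicate 1 (0.142).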

How the results depend on the processing

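Of 582 values of the tested members under an alternative, 518 kept their direction and side of the threshold, 32 lost the call, 13 gained it and 19 changed sign. The lower Padi4 and higher Lmna in Padi4 KO and the Lmnb1 values within each treatment kept both under all 16 alternatives. The R848 responses of Padi4 and Lmnb1 lay near 2-fold. Leaving out 1 library, Padi4 in WT ranged up to -0.999, where it lost its call. Where no cause is given below, the cause was not tested.

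Over all 12254 genes in Padi4 KO against WT, DESeq2 passed 475 as higher and 586 as lower without stimulus, where edgeR passed 1170 and 1763. Over both treatments these were 840 and 1088 with DESeq2, 2909 and 591 with library size alone, and 1801 and 1839 in the main setting. For the WT response DESeq2 passed 811 and 719, and the main setting 879 and 1328. For the Padi4 KO response library size alone passed 624 and 2072, and the main setting 989 and 1083. The count of members passing was 3 with DESeq2 without stimulus (5 in edgeR). Over both treatments it was 2 with DESeq2 and 2 with library size alone (1 higher, 1 lower, against 1 and 3), and from 2 to 4 leaving out 1 library (2 without WT unstimulated replicate 1 or Padi4 KO R848 replicate 1). For the WT response it was 1 with DESeq2, 1 after thinning, 1 at 0.05, and 1 to 2 leaving out 1 library. For the Padi4 KO response it was 3 with library size alone, 5 without the 2-fold rule, and 1 to 2 leaving out 1 library. For the difference of responses it was 1 to 2. Neighbours of Padi4 passing numbered 1 with DESeq2 and 2 to 5 leaving out 1 library. NET genes passing numbered 35 (WT response) and 37 (Padi4 KO response) without the 2-fold rule (16 and 18 with it), where 29.5% and 35.1% of all genes passed, and for the difference 2 with DESeq2, 5 after thinning and 1 to 10 leaving out 1 library.

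Signs turned for values that had not passed, and for Lmnb1 over both treatments (0.0499 with library size alone). Padi3 without stimulus was 0.202 and Gsdmd with R848 0.0367 with library size alone. Padi3 in the Padi4 KO response was 0.588 after thinning. Gsdmd was -0.00447 (filterByExpr) and -0.255 (library size alone) in the WT response, and -0.0662 (library size alone) in the Padi4 KO response. Leaving out 1 library, Padi2 with R848 ranged from -1.03 to 0.763, Padi3 without stimulus from -0.719 to 0.938 and in the Padi4 KO response from -0.839 to 0.00116, the Padi4 difference of responses from -0.0754 to 0.602, and Gsdmd from -0.0374 to 0.206 in the WT response and -0.0502 to 0.349 in the difference.

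The replicate block left the members passing at 5 without stimulus, 3 with R848, 4 over both treatments, 2 and 1 in the responses and 1 in their difference. The numbers did not pair the libraries: deviations of same-numbered libraries correlated at -0.02 to 0.0199. Depth limits Padi1, Padi3 and Padi6 and the WT side of Padi2 and Lmna.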
